A study of Caenorhabditis elegans with 2 samples.

Results

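The 6 genes hpl-1, hpl-2, lin-13, lin-15B, lin-36 and lin-61 of Caenorhabditis elegans were examined for binding of ATHP-1. The name ATHP-1 stands for the AT-hook and the PHD finger of the protein, motifs known for contact with DNA and with histone tails. They are the 2 heterochromatin protein 1 (HP1) genes of the worm and 4 genes of the synMuv B class, and they were chosen by name from the 19973 protein-coding genes of the annotation. The lists came from chromatin immunoprecipitation and sequencing (ChIP-seq), in which DNA crosslinked to a protein is captured with an antibody and sequenced. There was 1 group with 2 biological replicates, made from whole young adults of both sexes, 64 hours past synchronization as starved L1 larvae. Strain OP685 carried the unc-119(tm4063) III mutation and the integrated transgene wgIs685, from which ATHP-1 was made with a carboxy-terminal GFP-FLAG tag, and the antibody was against GFP. All values therefore describe the tagged transgene product in a mixture of all tissues. No untagged strain, other strain or other condition was compared here, so no test between groups could be made.

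The synMuv genes were defined in worms by the extra vulvae that form when a class A and a class B gene are lost together. Many class B products are repressors of transcription that act on chromatin, and together with class A they keep lin-3, which encodes the epidermal growth factor of vulval induction, silent in the epidermis. HP1 proteins read histone H3 methylated at lysine 9 through a chromodomain. The question here was whether the genes that encode these repressors lie at sites of tagged ATHP-1, which is a separate matter from whether the proteins meet.

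Of the 6 genes, only lin-13 held a reproducible ATHP-1 summit, placed 812 bp upstream of its 5′ end. It had the 232nd strongest of 1649 reproducible regions. The promoters of hpl-1, hpl-2, lin-15B, lin-36 and lin-61 held weaker regions that were below the authors' reproducibility threshold. Pooled regions of any strength were common there, at the promoters of 43.7% of all protein-coding genes.

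A gene was counted when the summit of a region, the deposited position of its highest point, fell within 1000 bp upstream to 500 bp downstream of any annotated 5′ end or inside the gene. Where a gene has 2 annotated 5′ ends, distances are given from the nearer one. By this gene window 1 of 6 genes was counted, where 7.75% of all 19973 protein-coding genes were. By the window around 5′ ends alone 1 of 6 was counted, where 6.25% of all genes were. Read by chromosome, 1 of the 3 genes on chromosome III was counted against 13.1% of its protein-coding genes. On X neither hpl-1 nor lin-15B was counted, against 3.37% of X genes, and 1 of the 4 autosomal genes was counted against 8.44% of autosomal genes. With a window of 500 bp upstream to 200 bp downstream the count was 0, since the lin-13 summit lies farther upstream. The share of all genes was then 6.62% with the gene included and 4.74% around 5′ ends alone. With 6 genes, a count of 1 is not a result about the group.

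Strength is given as the signal value deposited by the authors, which has no unit, and as the rank by that value within a list, with 1 the strongest. The pooled list and each replicate list held 30000 regions, and most of these were below the threshold. The authors' label for the pooled list is peaks and background, so a region in it need not be a binding site. The reproducible list consisted of the 1649 strongest pooled summits, with signal values from 106 to 1172. At this loose level all 6 genes had a region in the pooled list, where 56.2% of all genes had one. In replicate 1, 4 of 6 genes had a region against 60.3% of all genes, and in replicate 2 all 6 had one against 60.1%. Around 5′ ends alone the counts of the 6 genes were the same. The shares of all genes were then 43.7% in the pooled list, 44.7% in replicate 1 and 45.6% in replicate 2. A region somewhere in a list was thus common for any gene, and the ranks tell the 6 genes apart better. The −log10 q-value of the strongest pooled summit was 3.44 at lin-13, 2.23 at lin-36 and 1.29 at lin-61. It was 0.569 at hpl-2, 0.280 at lin-15B and 0.184 at hpl-1.

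**Figure D1:**
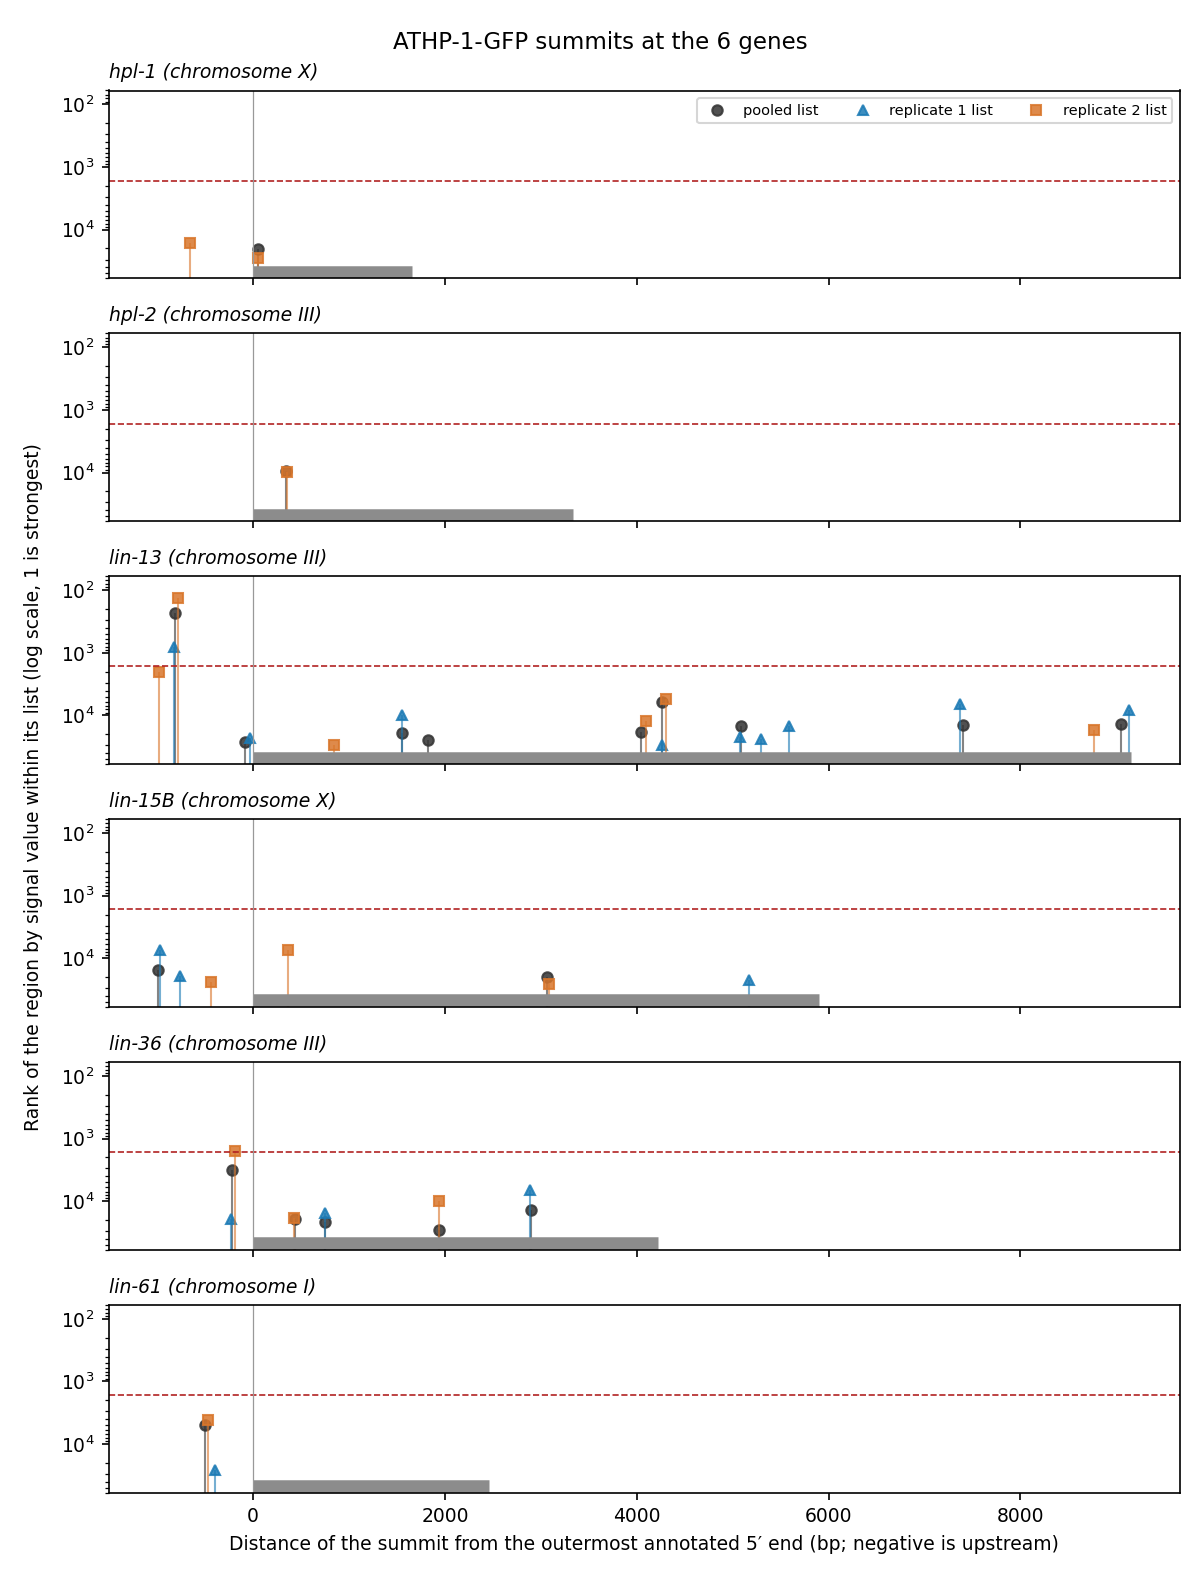
Rank of each region by signal value within its list (vertical axis, log scale, 1 at the top) against the distance of its summit from the outermost annotated 5′ end (horizontal axis, bp), for the pooled list and both replicate lists. Grey bars are gene bodies and the dashed line is rank 1649; the upstream summit of lin-13 lies above the line in all 3 lists, and lin-36 reaches it in replicate 2 alone.

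The strongest pooled summits ranked 232 at lin-13, 3128 at lin-36, 5016 at lin-61, 9475 at hpl-2, 15507 at lin-15B and 20543 at hpl-1. Of all protein-coding genes, 1.34% had a stronger best summit than lin-13 and 13.3% had a stronger one than lin-36. The share was 19.1% for lin-61, 30.4% for hpl-2, 40.9% for lin-15B and 47.2% for hpl-1, all by the gene window. By the window around 5′ ends alone it was 1.11% for lin-13, 10.6% for lin-36 and 14.9% for lin-61. For hpl-2 it was then 22.6%, for lin-15B 30.5% and for hpl-1 35.6%. In replicate 1 alone, lin-13 ranked 798, lin-36 6559, lin-15B 7464 and lin-61 26044, and both HP1 genes had no region. In replicate 2 alone, lin-13 ranked 131, lin-36 1554, lin-61 4104, lin-15B 7468, hpl-2 9706 and hpl-1 16654. So by the gene window lin-13 came first and lin-36 second in each list, whereas the order of lin-15B and lin-61 turned between the replicates. The lin-36 rank in replicate 1 was of a summit 2891 bp into the gene. Around 5′ ends alone lin-36 ranked 19180 in replicate 1, behind lin-15B at 7464. Apart from lin-13, the ranges of the 2 replicate ranks overlapped between neighbours in the order wherever both replicates gave a value. At lin-36 and lin-15B these ranges join different sites and are not the spread of 1 summit. The lin-15B summit was 970 bp upstream in replicate 1 and 354 bp downstream in replicate 2. The upstream lin-36 summit itself ranked 19180 in replicate 1 and 1554 in replicate 2.

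**Figure D2:**
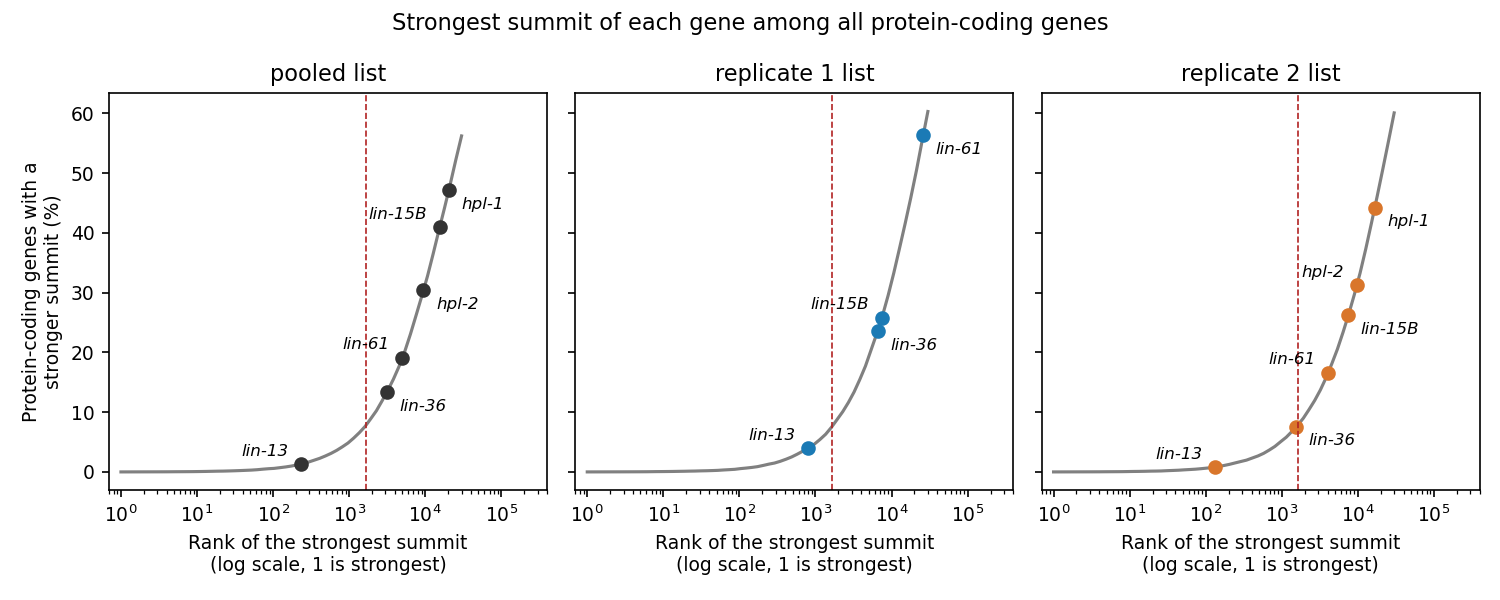
Share of all 19973 protein-coding genes with a best summit at least as strong as a given rank (grey line, percent) against that rank (log scale), with the best summit of each of the 6 genes as points, for the pooled, replicate 1 and replicate 2 lists. Best summits are those of the gene window. The dashed line is rank 1649; lin-13 sits at 1.34%, 3.98% and 0.786% in the 3 lists, and hpl-1 and hpl-2 have no point in replicate 1.

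The HP1 genes hpl-1 and hpl-2 encode chromodomain proteins that bind methylated histone H3. The gene hpl-1 (WBGene00001995) lies at chrX:13245390-13247044 on the plus strand of ce11. Its only pooled summit was in a coding exon, 56 bp inside the gene, with signal 32.6 and rank 20543. Replicate 1 had no region there. Replicate 2 had one with signal 16.3 and rank 28835, and a second of signal 22.4 and rank 16654 lay 659 bp upstream. No hpl-1 region ranked better than 16654 in any list.

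The gene hpl-2 (WBGene00001996) lies at chrIII:10752195-10755530 on the minus strand and has 2 annotated 5′ ends. Its single pooled summit was in a coding exon, 339 bp downstream of the nearer 5′ end, with signal 48.2 and rank 9475. Replicate 2 placed it within 2 bp, with signal 28.6 and rank 9706, and replicate 1 had none. The bases around both HP1 summits are shown because they hold the searched motifs, in capitals; they are from the RefSeq assembly of ce11 and read along the gene, at chrX:13245421-13245471 (plus) and chrIII:10755132-10755232 (minus).
hpl-1: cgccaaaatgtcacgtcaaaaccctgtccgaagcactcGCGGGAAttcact
hpl-2: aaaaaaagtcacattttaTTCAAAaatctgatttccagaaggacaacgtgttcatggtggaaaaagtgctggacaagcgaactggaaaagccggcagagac

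The capitals in hpl-1 are GCGGGAA, a form of the E2F site. Within windows of 50 bases to each side of the summit this word occurred in 1.71% of all pooled regions and 2.85% of reproducible regions, both strands searched. The capitals in hpl-2 are TTCAAA, the reverse complement of TTTGAA, the core of the CHR element bound by LIN-54; TTTGAA occurred in 19.0% of pooled and 17.2% of reproducible windows. The letters alone do not show that a factor binds there.

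The nearest reproducible summit was closer to hpl-2 than to hpl-1. For hpl-1 it lay 19319 bp from the 5′ end with signal 119, and 58.9% of protein-coding genes were farther from one. For hpl-2 it lay 3722 bp upstream, and 85.2% of genes were farther. That summit, in the region chrIII:10759031-10759482, was the strongest of the whole list, with signal 1172, and it ranked 1 in each replicate as well.

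Between this region and hpl-2 lie rnf-113 and K01G5.10, on the same strand and with gaps of 93 bp and 0 bp, so that the 3 genes form a closely spaced run. The summit was 730 bp upstream of K01G5.10, the most upstream gene of the run, and 55 bp upstream of tasp-1, which is read the other way. K01G5.10, rnf-113 and tasp-1 were named after their values were seen. In worms such closely spaced genes can be transcribed together as an operon; whether these 3 are was not examined. When the window was set at the most upstream gene of each same-strand run with gaps of at most 500 bp, a choice made after seeing the data, hpl-2 and lin-13 were counted, 2 of 6, against 7.03% of all genes. By the same rule 20.1% of protein-coding genes, 4005 of 19973, were not the most upstream of their run.

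LIN-13 is a zinc finger protein that associates with HPL-2 and LIN-61. Its gene (WBGene00003002) lies at chrIII:7700338-7709491 on the minus strand, 2817 bp from the nearest protein-coding gene upstream, C03B8.3. The reproducible region was chrIII:7710093-7710512, with its summit at 7710303. The pooled signal was 225, at rank 232. The −log10 q-value of 3.44 was the highest that the list holds, although other regions had a stronger signal. Replicate 1 gave signal 71.7 at rank 798, with the summit 11 bp away, and replicate 2 gave 153 at rank 131, 29 bp away. Both replicates thus ranked it among their 1649 strongest. Replicate 2 alone had a further region 986 bp upstream, with signal 55.1 and rank 2012.

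The bases around this summit, 50 to each side, at chrIII:7710253-7710353 on the minus strand, are shown because they are the only reproducible site of the 6 genes; no capitals are used, since neither motif occurs.
lin-13: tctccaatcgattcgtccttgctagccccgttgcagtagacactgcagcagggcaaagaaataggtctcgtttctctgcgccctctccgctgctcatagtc

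This window held 45.5% A and T, lower than most: only 7.71% of pooled windows held less. The median was 58.4% over pooled windows (quartiles 51.5 and 64.4) and 54.5% over reproducible windows (quartiles 47.5 and 61.4). At the other summits the share was 48.5% for hpl-1, 51.5% for lin-36, 53.5% for the upstream summit of lin-15B and 59.4% for hpl-2, so hpl-2 alone of these 5 was above the pooled median.

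Inside lin-13 and near its 5′ end were 8 weaker pooled summits. The strongest lay 4266 bp into the gene in a coding exon, with signal 57.7 and rank 6178; it ranked 29558 in replicate 1 and 5563 in replicate 2. The others had signals from 27.3 to 40.5 and were found in 1 replicate or, for the one at 1819 bp, in neither. One lay 85 bp upstream of the 5′ end, with signal 27.3 and rank 26957. The intronic small nucleolar RNA gene C03B8.5 was 661 bp from the nearest of these summits. At the immediate 5′ end of lin-13 the signal was therefore weak, and the reproducible site was the distal one.

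Genes were also compared with lin-13 by the rank of their strongest summit in the window around 5′ ends, over the pooled and both replicate lists. Among 6101 others with a rank in all 3, the most alike were ndua-7 and rheb-1. Their ranks were 214, 710 and 126 for ndua-7 and 243, 935 and 146 for rheb-1. The distances on the log10 rank scale were 0.0640 and 0.0858.

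LIN-36 and LIN-15B are nuclear proteins with THAP-type zinc finger domains. The gene lin-36 (WBGene00003021) lies at chrIII:8016648-8020873 on the minus strand. Its strongest pooled summit was 218 bp upstream, with signal 78.3, rank 3128 and a −log10 q-value of 2.23. Replicate 1 gave signal 20.6 at rank 19180 and replicate 2 gave 61.5 at rank 1554. Replicate 2 thus put the site just inside its 1649 strongest regions while replicate 1 put it far below. Counted from the 1649 strongest of replicate 2, lin-13 and lin-36 were called, against 7.98% of all genes; from those of replicate 1, lin-13 alone was called, against 7.61%.

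The lin-36 summit fell inside F44B9.11, an annotated noncoding RNA on the same strand, 16 bp from its 5′ end. The bases 50 to each side, at chrIII:8021041-8021141 on the minus strand, are shown because they hold an inverted repeat, looked for after the sequence was seen, whose 2 arms of 8 bases are in capitals and are 16 bases apart.
lin-36: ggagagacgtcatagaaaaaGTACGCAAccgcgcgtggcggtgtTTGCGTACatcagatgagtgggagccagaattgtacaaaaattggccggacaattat

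Inverted repeats with arms of at least 8 bases and a spacer of at most 30 occurred in 9.95% of pooled windows and 8.49% of reproducible windows. Neither motif was found in the lin-36 window. The remaining 4 pooled summits of lin-36 were in coding exons, with signals from 25.7 to 40.4 and each found in 1 replicate. The one at 2902 bp was the strongest of the gene in replicate 1, with signal 32.3 and rank 6559. The strongest summit of lin-36 was thus at a different position in each replicate. The nearest reproducible summit lay 7052 bp from the 5′ end, with signal 124, and 78.2% of genes were farther from one.

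For lin-15B (WBGene00023497), at chrX:15726123-15732025 on the plus strand, the replicates shared no site. Its upstream pooled summit, at 994 bp and so near the edge of the window, had signal 38.0 and rank 15507; replicate 1 gave 30.8 at rank 7464 and replicate 2 had no match. The summit at 3054 bp in a coding exon had pooled signal 32.9 and rank 20187, and was matched in replicate 2 at rank 25532 only; both this distance and the next are from the inner of its 2 annotated 5′ ends. The strongest region of replicate 2, with signal 31.9 and rank 7468, lay 354 bp downstream of that end and had no counterpart in the pooled list. Its 3′ end overlaps lin-15A, a class A gene, by 58 bp. The nearest reproducible summit was 15934 bp from a 5′ end, with signal 155, and 63.7% of genes were farther.

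LIN-61 is a protein of MBT repeats that binds methylated histone H3. Its gene (WBGene00003041) lies at chrI:7248827-7251282 on the minus strand and shares its upstream region with bub-1, which encodes a mitotic checkpoint kinase and is read the other way 658 bp away. The only pooled summit was in that shared region, 497 bp from lin-61 and 162 bp from bub-1, with signal 63.4 and rank 5016. Replicate 1 gave 17.3 at rank 26044 and replicate 2 gave 40.5 at rank 4104. The region was thus weak in replicate 1, and a position between 2 divergent genes does not assign it to either. The window held 54.5% A and T. The nearest reproducible summit was 167797 bp away, and only 4.72% of genes were farther from one; the median distance over all protein-coding genes was 26651 bp (quartiles 8745 and 61039).

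Summits of the pooled and replicate lists were matched where they lay within 100 bp. Of the 19 pooled summits at the 6 genes, 4 were matched in both replicates (21.1%), 8 in replicate 1 only (42.1%), 6 in replicate 2 only (31.6%) and 1 in neither (5.26%). Over all 30000 pooled summits these shares were 28.8%, 27.9%, 29.0% and 14.4%. Below the threshold 3 of 18 were matched in both, where 7100 of all 28351 pooled summits below it were. The summits matched in both were the upstream summits of lin-13, lin-36 and lin-61 and the one 4266 bp into lin-13. All 4 ranked better in replicate 2. Of all pooled summits matched in both replicates 50.6% did, 4372 of 8640, and of the reproducible ones 50.8% did, 783 of 1540. This difference was described and not tested, and read depth is not given in the sources used here.

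**Figure D3:**
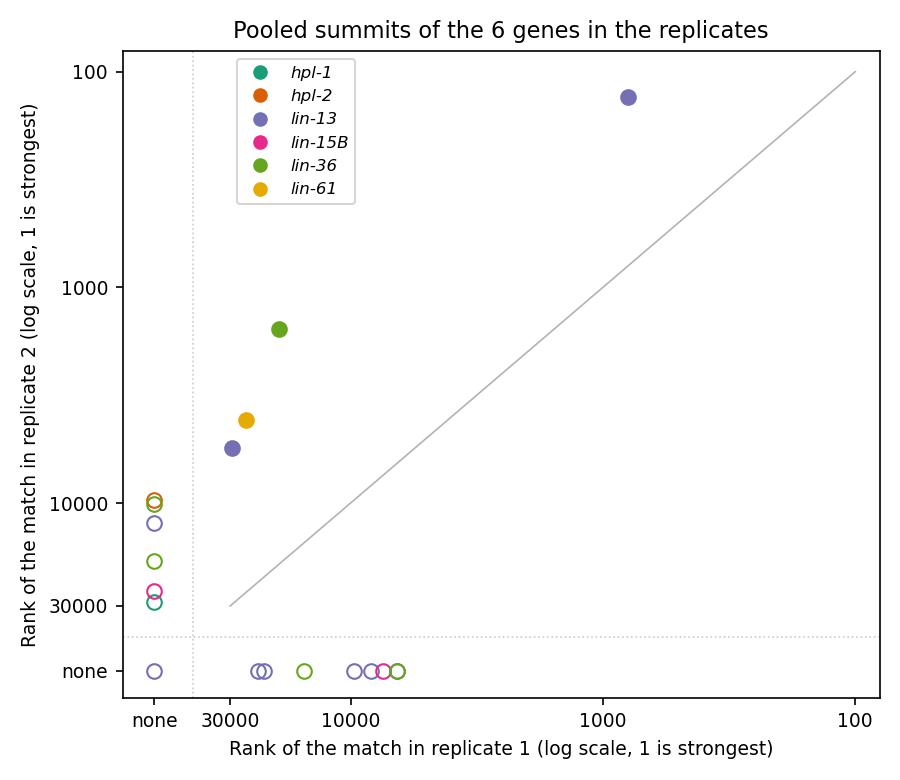
Rank of the match in replicate 1 (horizontal) against its rank in replicate 2 (vertical), both on log scales with 1 the strongest, for each of the 19 pooled summits at the 6 genes. Open circles have a match in 1 replicate or in neither ("none") and the line marks equal rank; the 4 filled points all lie on the side where replicate 2 ranks higher.

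In the pooled list summits were densest at lin-36 and lin-13. There were 9.57 per 10 kb of window at lin-36 and 8.86 at lin-13, compared with 3.77 at hpl-1, 2.90 at lin-15B, 2.89 at lin-61 and 2.31 at hpl-2. All protein-coding windows together held 3.44 per 10 kb. The order was not the same in the replicates. In replicate 1 there were 8.86 per 10 kb at lin-13 and 5.74 at lin-36, and none at the HP1 genes; in replicate 2 hpl-1 was densest with 7.53, from 2 summits, before lin-13 with 5.91 and lin-36 with 5.74. Most pooled summits at lin-36 and lin-13 were weak and found in 1 replicate. Since the pooled list includes background by its label, these densities are not counts of binding sites.

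The promoters themselves, from 250 bases before to 50 after the outermost 5′ end, were searched for the same motifs. TTTGAA occurred in 5 of 6, lin-36 being without it, and 62.5% of all promoters of this length hold it. GCGGGAA occurred in none, and 3.22% of all promoters hold it. The share of A and T was 56.0% at hpl-1, below the lower quartile of 62.0 for all promoters, and 70.3% at hpl-2 and lin-13 and 70.7% at lin-15B, above the upper quartile of 68.7. At lin-36 and lin-61 it was 64.7%, near the median of 65.7.

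Further lists held 24 genes of the synMuv pathway, not all of them synMuv genes. Among them were lin-3, the target of the class, and genes for methylation of histone H3 at lysine 9. Of these 24, 10 held a reproducible summit in the gene window (41.7%), against 7.75% of all protein-coding genes. These lists were chosen with results of these data known. DREAM is the complex of the retinoblastoma-like LIN-35, the E2F and DP proteins EFL-1 and DPL-1 and the MuvB core, which represses genes by binding their promoters. In the DREAM list 6 of 8 genes were counted: lin-9 with signal 368 at rank 49, lin-54 with 357 at rank 54, lin-35 with 235 at rank 204, lin-53 with 231 at rank 217, efl-1 with 186 at rank 405 and lin-52 with 150 at rank 730. All 6 summits were within 348 bp upstream of a 5′ end and all ranked among the strongest 1649 in each replicate. The one at lin-54 is shared with rpl-12, the one at lin-35 with vps-51, the one at lin-53 with nra-2 and the one at efl-1 with fbxa-90. The gene dpl-1 ranked 14858, and lin-37 had no pooled region. In 1 replicate each they had regions of better rank, dpl-1 with signal 42.3 at rank 3132 in replicate 1 and lin-37 with 32.1 at rank 7367 in replicate 2.

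Outside DREAM 4 of 16 genes were counted. In the list of the chromatin remodelling complexes NuRD and MEC it was 1 of 3, mep-1, a zinc finger protein gene. Its signal was 110 at rank 1510, near the lowest value of the reproducible list. That summit is shared with M04B2.11, M04B2.12 and M04B2.13. The genes let-418 and hda-1 ranked 4162 and 21383. Of the other class B genes 1 of 3 was counted, ubc-9, which encodes the enzyme that conjugates SUMO, with signal 180 at rank 441. The SUMO gene smo-1, with signal 100 at rank 1837, was just below the threshold, and tam-1 ranked 2651. In the class A list 2 of 4 were counted, lin-8 with signal 147 at rank 768 and lin-56 with 141 at rank 848, the latter inside its 5′ UTR. The class A genes lin-38 and lin-15A ranked 3148 and 12172.

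None of the 5 genes for methylation of histone H3 at lysine 9 and its partners was counted. This list holds the methyltransferase genes met-2, set-25 and set-32 and the genes of the MET-2 partners LIN-65 and ARLE-14. Their pooled ranks were 2870 for met-2, 3111 for arle-14, 4014 for set-25 and 9480 for lin-65, and set-32 had no pooled region, though replicate 1 listed one with signal 24.6 at rank 13149. The growth factor gene lin-3, on which the class acts, had no pooled region either; replicate 1 listed one with signal 26.7 at rank 10725 and replicate 2 one with 16.6 at rank 27996. The median best rank was 7245.5 over the 6 genes of HP1 and class B, 311 over DREAM, 4014 over the methylation list and 22986 over all protein-coding genes, with genes without a pooled region placed after the last rank. The median was 1837 over the other class B genes, 1998 over class A and 4162 over NuRD and MEC. In this description the 6 genes had a weaker median rank than these lists, DREAM and the methylation list. It was stronger than that of all protein-coding genes. With so few genes in each list this is not a result about the group.

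**Figure D4:**
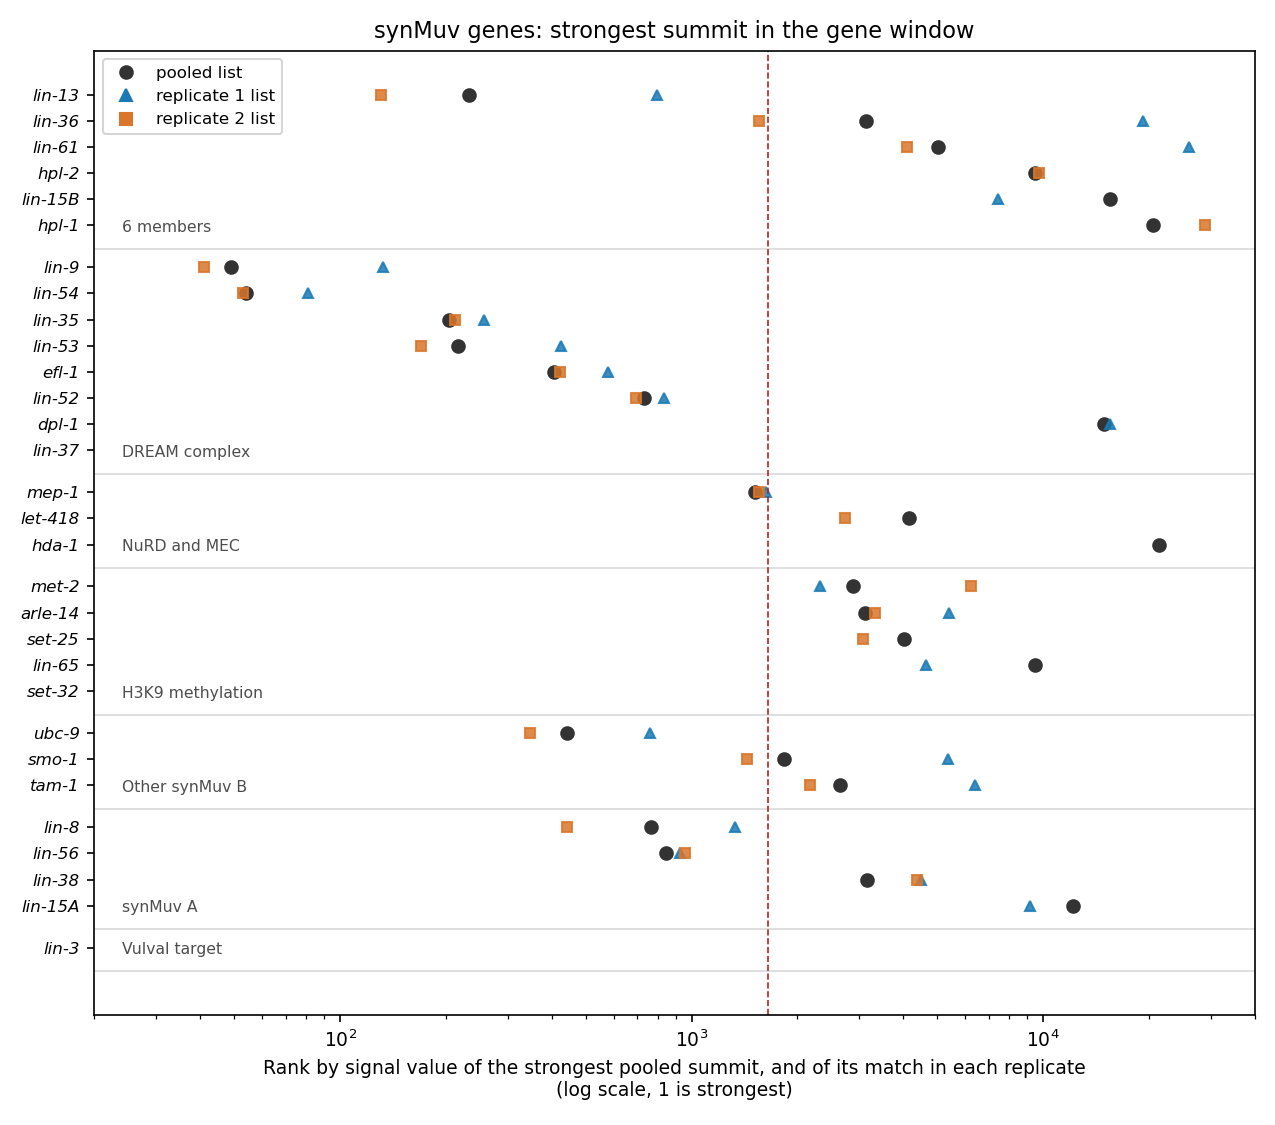
Rank by signal value (log scale, 1 is strongest) of the strongest pooled summit in the gene window of each gene of the synMuv pathway lists. The rank of its match in replicate 1 and replicate 2 is also shown, and genes without a point had no pooled region. The dashed line is rank 1649; of the 6 genes at the top lin-13 alone is left of it in all 3 lists, as are 6 of 8 DREAM genes.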

How the data were processed

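Anti-GFP ChIP-seq region lists of 2 biological replicates on ce11 were used; lists on ce10 were not used. Each replicate list was made by the authors from 1 alignment of its own and a control alignment, per the readme, with a pooled list from both and a reproducible list by irreproducible discovery rate. Aligner, caller, threshold and read depth were not given in the sources used, and the precision set by depth is unknown. The deposited signal score is printed as a description and was compared only as a rank within a list, since it has no fixed unit and its scale can differ between lists. The deposited −log10 q-value was described.

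Genes were protein-coding genes of Ensembl release 115 on WBcel235, and bases, promoters included, from the RefSeq genome of that build. Coordinates are 1-based. A summit is the region's start plus the deposited offset. Genes were described by counts beside those over all genes, with no test. Named were the 6 genes, those of the pathway lists, genes that share a counted summit, and the 2 genes most like each member with a reproducible promoter summit. The members and lists were chosen with earlier results of these data known. Alternatives were narrower windows, overlap of at least 1 bp, the strongest 824 reproducible or 3298 pooled regions, and each replicate alone; the head of a same-strand run and the inverted repeat were added after seeing the data. The counting was tested on simulated data. Python 3.11.15, numpy 2.4.6, pandas 2.3.3 and matplotlib 3.10.9 were used.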

Additional observations from a re-analysis of the deposited data

How the results depend on the processing

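The count of 1 of 6 genes, lin-13, was the same in the gene and 5′ end windows, and it was 1 with overlap of 1 bp and with the stronger 824 regions. It was 0 with windows of 500 bp upstream to 200 bp downstream or of 200 bp to each side, which the summit 812 bp upstream is outside, and 2, lin-13 and lin-36, with 3298 pooled regions. It ran from 1 to 2 when a replicate was left out, and was 2, hpl-2 and lin-13, at the head of the run. The share of all genes, 7.75% in the gene window, was 4.78% with 200 bp to each side, 4.25% with the stronger regions and 13.9% with 3298 regions. For the 5′ end window, 6.25%, these were 2.63%, 3.50% and 11.0%. With overlap of 1 bp the share was 9.50% in the gene window and 6.84% in the 5′ end window. With 500 bp upstream to 200 bp downstream it was 6.62% and 4.74%. The other genes of the pathway lists that were counted fell from 10 to 6 with 200 bp to each side. With both narrower windows the strongest pooled signal was 57.7 at lin-13 and 32.9 at lin-15B; with 200 bp to each side it was 40.4 at lin-36, and lin-61 had none. In the replicate lists, which have their own scale, it ran from 71.7 to 153 at lin-13 and 17.3 to 40.5 at lin-61. It ran from 30.8 to 31.9 at lin-15B and 32.3 to 61.5 at lin-36, at positions that differed between the replicates. The lin-36 summit matched in both gave 20.6 in replicate 1 and 61.5 in replicate 2. In replicate 2 the strongest signal was 22.4 at hpl-1 and 28.6 at hpl-2, without a value in replicate 1. No paired analysis was possible because there was 1 group and no test. Read depth, and so the weakest binding that could be seen, is unknown.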
